A study of Mus musculus with 6 samples.

Results

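The genes described here encode the subunits of the mitochondrial respiratory chain and ATP synthase that are carried in the nucleus (oxidative phosphorylation, OXPHOS). They were chosen by name alone, as genes named Ndufa, Ndufb, Ndufc, Ndufs or Ndufv with a digit, Cox4 to Cox8, Uqcr, Atp5, or Sdha to Sdhd. That gave 84 of the 23698 genes in the deposited count tables. By complex they were 37 of complex I, 4 of complex II, 8 of complex III, 18 of complex IV and 17 of complex V. A single member, Ndufs5, shared its entry with another gene name, BC002163. The name rule takes in Atp5s and Atp5sl, which are not structural subunits of ATP synthase. It leaves out Ndufab1, Cyc1 and Cycs.

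The cells were cultured mouse keratinocytes isolated from newborn (P0) back skin, between passage 10 and passage 15, carrying HRASG12V and lacking TGFBR-2, a squamous carcinoma model that the study calls SCCc. The study asked how 5′UTR use relates to translation in cancer. The count tables used here were those of 1 ribosome profiling library and 2 RNA-seq libraries, all of this genotype, so no comparison with wild-type cells could be made from them. Further libraries that the study draws on, including wild-type and other SCCc ribosome profiling, and its long-read libraries were not analysed here. The labels do not say whether the RNA-seq replicates came from separate cultures, and cells grown in dishes lack the tissue and circulation of a tumour.

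The respiratory chain passes electrons from NADH (complex I) and succinate (complex II) through ubiquinone to complex III, then through cytochrome c to complex IV, where oxygen is reduced. Complexes I, III and IV pump protons across the inner mitochondrial membrane, and complex V uses the return flow to make ATP. Mitochondrial DNA encodes a central part of every complex except complex II, so cytosolic ribosomes supply all of complex II but only part of the others.

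The ribosome profiling library held 3549555 counts on exons, and 3198469 on coding sequence (CDS). RNA-seq replicate 1 held 10707930 exon counts and replicate 2 held 14003713. No gene with an mt- name was in the tables, so the mitochondrially encoded partners of these subunits could not be measured. Footprints are reads from ribosome-protected fragments, and levels are given in RPKM, counts per kilobase of counted sequence scaled to the library's exon total. Sequencing reads without molecular identifiers are not independent molecules, so the intervals and limits given for counts cover counting error only.

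Marker genes were read first as a check of the label. All 8 keratinocyte markers had at least 3 counts in every library, and they summed to 15324 RPKM in RNA-seq replicate 1, 17476 in replicate 2 and 10954 in footprints. The basal keratin gene Krt5 led them, at 7965 and 9483 RPKM in RNA. Fibroblast or feeder markers summed to 9.98 and 15.6 RPKM in RNA and 0.870 in footprints. Their most abundant gene was Col3a1, at 3.89 and 5.49 RPKM, and 1 of the 7 genes (Pdgfra) reached 3 counts in every library. The collagen genes Col1a1, Col1a2 and Col3a1 had 0 footprints.

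Of 3 immune markers, 1 reached 3 counts in every library. This was Cd68, a lysosomal gene of macrophages, at 35.1 and 37.3 RPKM of the list's 35.2 and 37.5 in RNA, and the list summed to 10.3 RPKM in footprints. The defining markers Ptprc and Cd3e had 0 footprints, as had Pecam1 and Cdh5 of the endothelial list and Dct, Mlana and Tyr of the melanocyte list. The 3 endothelial markers summed to 0.505 and 0.591 RPKM in RNA and 0.908 in footprints, led by Kdr, and 1 of them reached 3 counts in every library. The 4 melanocyte markers summed to 5.38 and 5.47 RPKM in RNA and 0.30 in footprints, led by Pmel, with none at 3 counts in every library. Muscle markers, 2 of 8 at 3 counts in every library, summed to 10.7 and 13.5 RPKM in RNA, led by Mb, and to 608 RPKM in footprints, of which Acta1 gave 606. The part of these other markers in the values given here was not tested. In a bulk library, fewer cells of a type and less RNA per cell cannot be told apart.

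OXPHOS genes had more footprints per RNA than most genes of these cells, with large differences among members. Most other genes of similar coding length did so too. The members took 1.67% of all CDS footprints, against 1.40% and 1.43% of the RNA-seq counts on CDS in replicates 1 and 2. Of the 84 members, 77 passed the filter on low values (RNA above 1 RPKM in both RNA-seq libraries and a mean normalized count above 25), as did 9863 of all genes. The other 7 were the tissue isoforms of complex IV. Median levels of the 77 members were 274 RPKM in footprints and 117 RPKM in RNA, against 19.1 and 15.3 RPKM over all passing genes.

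Translational efficiency (TE) is used here as the footprint RPKM over the CDS divided by the mean RNA RPKM over exons. The median over all passing genes was subtracted from its log2, so that 0 is the middle gene of this library. The median log2 TE of the 77 members was 1.01, with 1.07 from RNA-seq replicate 1 alone and 0.91 from replicate 2 alone (SD 0.11, n = 2). A log2 TE above 1 was reached by 39 of 77 members (50.6%), and by 20.8% of all passing genes. A log2 TE below -1 was found for 1 member, Cox7a2l, and for 21.1% of all passing genes. In all, 68 of the 77 members lay above 0 (88.3%), as did 77.1% of 1347 other genes of similar counted CDS length.

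The count above 1 moved with the way the ratio was built. With RNA-seq read over the CDS, the same region as the footprints, it was 24 of 77 members, against 18.3% of all genes. Among genes counted 100 times or more in each library it was 17 of 72 members, against 18.8% of the genes in that set, whose median log2 ratio lay 0.39 higher than that of all passing genes. Among genes whose coding sequence did not recur elsewhere in the annotated transcripts it was 5 of 25 members, against 18.7%. The member shares in the last 2 sets were 23.6% and 20%, near those of all genes in them.

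**Figure D1:**
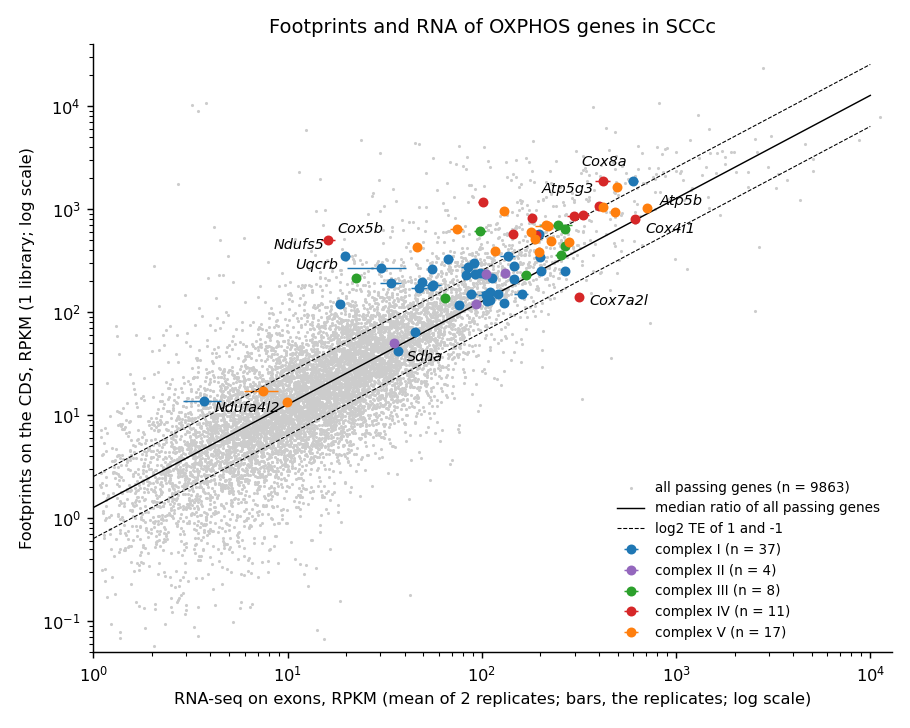
Footprints on the CDS against RNA-seq on exons, in RPKM on log axes, for all 9863 passing genes (grey) and the 77 passing OXPHOS members by complex; horizontal bars join the 2 RNA-seq replicates. Most members lie above the median ratio (solid line), 39 of them above the upper dashed line (log2 TE of 1), and Cox7a2l lies below the lower one.

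The sequence around the start codon was read for the members because several of them share an element there. An AAGATGGC stretch covering the start codon was present in 16 of the 76 passing members with an annotated start codon (21.1%), against 396 of 9597 passing genes (4.13%). It was also in 10 of 77 mitochondrial (13.0%) and 6 of 78 cytosolic ribosomal protein genes (7.69%). Complex I held 11 of the 16 members with it (29.7% of its 37 members), complex IV 0 of 11. Of these, 3 from complexes I, II and III are shown with AAGATGGC in capitals, from GENCODE M21 transcripts on GRCm38:
Ndufs4: tacaggAAGATGGCg
Sdhc: gaactcAAGATGGCt
Uqcrc1: agttagAAGATGGCg
They lie at chr13:114388051-114388065 (minus strand), chr1:171150573-171150587 (minus strand) and chr9:108936710-108936724 (plus strand). Their log2 TE ran from 0.14 (Uqcrc1) to 2.16 (Ndufs4), so the shared letters went with values near 0 and with high ones. The median log2 TE of the 16 members was 0.82, below the 1.01 of all members. Cytosolic ribosomal protein genes with the element also lay lower than all of their list, at 0.53 against 2.29. So did the single such gene of complex III, at 0.14 against 0.82. Higher values with it were found for complex I (1.01 against 0.94), complex II (1 gene, 0.53 against 0.34), complex V (3 genes, 1.40 against 1.11), mitochondrial ribosomal protein genes (1.36 against 0.85) and all passing genes (0.30 against 0).

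Contexts without the element are shown for the members with the highest and the lowest log2 TE and for Sdha, with the start codon in capitals:
Cox5b: tcgggcgagATGgct
Cox7a2l: tccgccaacATGtac
Sdha: aaggcagacATGgcc
They lie at chr1:36691578-36691592 (plus strand), chr17:83514270-83514284 (minus strand) and chr13:74350203-74350217 (minus strand). A purine at position -3, the base that matters most in the Kozak context, was present in 73 of 76 members (96.1%), against 87.3% of all passing genes. A G at position 4 was present in 41 of 76 members (53.9%), against 54.3%. Members with both had a median log2 TE of 0.99, and the other 35 members had 1.01. Complexes differed in this respect, from 4 of 4 members with both bases in complex II to 2 of 11 in complex IV.

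Terminal oligopyrimidine (TOP) tracts, a C followed by at least 4 pyrimidines at the transcript's 5′ end, are the mark of ribosomal protein mRNAs, whose translation follows mTOR activity. Annotated 5′ ends of this form were found in 6 of 77 members (7.79%), 223 of 9801 passing genes (2.28%) and 14.1% of cytosolic ribosomal protein genes. The pyrimidine-rich translational element (PRTE), a companion motif tied to mTOR, was searched as 9 pyrimidines in a row with T at position 6. It was in the annotated 5′UTR of 16 of 77 members (20.8%), below the 28.3% of passing genes, and in 80.8% of cytosolic ribosomal protein genes. The members' searched 5′UTRs were shorter than those of passing genes (median 96 against 165 nucleotides), and the part of this length was not tested. The TOP tract is in capitals:
Atp5d: CCTTCggagaatcctgtgcg
Cox6b1: CTCTCgcagcttccggccag
Cox7a2l: CCTTTTCTagggcggtcgca
Ndufb11: CTCTTTagaagcttgctgtc
Sdha: CTTCCaagcccgacacccgc
Uqcrfs1: CCTTTCCggcgtcgcgctga
They lie at chr10:80142315-80142334 (plus strand), chr7:30626132-30626151, chr17:83514311-83514330, chrX:20617600-20617619, chr13:74350261-74350280 and chr13:30545343-30545362 (minus strand for these). Annotated ends can differ from the ends used in these cells, and the study's cap-based and long-read data on those ends were not analysed here. Their log2 TE ran from -1.53 (Cox7a2l) to 1.30 (Atp5d), so the tract went with low and high values alike. Ndufb11 and Uqcrfs1 are named for their 5′ ends, outside the rule for named genes.

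Promoters from RefSeq (GRCm38.p6) were matched for 63 of the 77 members and searched on both strands, from 250 bases before to 50 bases after the annotated start. The letters GCATGCGC, from the site of NRF1, a regulator of respiratory genes, were in 10 of the 63 (15.9%), against 6.27% of passing genes and 2.80% of all promoters in the table. CCGGAAG, from the site of ETS factors such as GABPA, was in 15 (23.8%), against 20.99% and 9.12%. AAGATGG, from the site of YY1, was in 10 (15.9%), against 7.91% and 6.48%, and these letters overlap the start codon element described above. Mitochondrial ribosomal protein genes had the NRF1, ETS and YY1 letters in 11.8%, 35.3% and 19.1% of 68 promoters. Cytosolic ribosomal protein genes had them in 3.45%, 39.7% and 13.8% of 58. Compared with these lists, the members lay highest for the NRF1 letters only. A match describes letters in a window and does not show binding.

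Complex I takes electrons from NADH and is the largest of the complexes. Its 37 members all passed, with a median of 210 RPKM in footprints and 91.7 RPKM in RNA. Their median log2 TE was 0.94, 18 were above 1 and none was below -1. The 7 core subunits, which hold the flavin and iron-sulfur centres and the quinone site, lay at a median log2 TE of 0.43, with 2 above 1. The 30 supernumerary subunits, which surround that core, lay at 1.01, with 16 above 1. With RNA-seq over the CDS, core and supernumerary subunits lay at 0.53 and 0.47, so their order was not kept. In that setting 8 of the 37 members were above 1 (21.6%), against 18.3% of all passing genes. The 8 were 1 core and 7 supernumerary subunits.

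The NADH-binding flavoprotein subunit Ndufv1 had 149 RPKM in footprints and 117 and 125 RPKM in RNA (log2 TE -0.041 ± 0.08, SD over 2 RNA-seq replicates, as for every ± below). Its log2 TE turned to 0.11 with RNA-seq over the CDS. Its partner Ndufv2, an iron-sulfur protein, had 179 RPKM in footprints and 57.5 and 52.9 RPKM in RNA (1.36 ± 0.07, or 0.72 with RNA-seq over the CDS). Ndufs1, the largest subunit and the carrier of further iron-sulfur clusters, had 64.1 RPKM in footprints and 46.2 and 44.4 in RNA (0.16 ± 0.03). These 3 proteins sit together in the NADH-oxidizing tip of the complex, and the log2 TE of Ndufv2 lay above the others by more than the spread between replicates.

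In the module that reduces quinone, Ndufs3 had 171 RPKM in footprints and 43.2 and 52.2 RPKM in RNA (1.50 ± 0.21). Ndufs7, which carries the last iron-sulfur cluster before quinone, had 150 RPKM in footprints and 82.4 and 93.9 in RNA (0.43 ± 0.14). Ndufs8, another iron-sulfur subunit, had 232 RPKM in footprints and 100 and 108 in RNA (0.82 ± 0.09). Footprint levels of these 3 core subunits lay closer together than their RNA levels.

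Among supernumerary subunits, Ndufs5 had the highest log2 TE of the complex, 3.80 ± 0.10. It had 351 RPKM in footprints and 20.9 and 18.7 RPKM in RNA, and its log2 TE was 2.55 with RNA-seq over the CDS. Ndufa11, a subunit of the membrane arm, stood at 2.35 ± 0.09, from 121 RPKM in footprints and 17.9 and 19.4 RPKM in RNA. Ndufa11 kept no such value with RNA-seq over the CDS, where its log2 TE was -0.070. Ndufs4, an accessory subunit needed for the stability of the NADH-oxidizing tip, stood at 2.16 ± 0.24, from 192 RPKM in footprints and 38.2 and 29.9 RPKM in RNA, and at 0.98 with RNA-seq over the CDS. Its ratio of RNA replicate 2 to replicate 1 was the lowest of the 72 members counted 100 times or more in each library (log2 -0.35).

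At the lower end, Ndufa6 had 148 RPKM in footprints and 147 and 174 RPKM in RNA (-0.45 ± 0.18). Ndufb9 had 248 RPKM in footprints and 268 and 267 RPKM in RNA (-0.45 ± 0.01). Both belong to the LYR-motif family and bind the mitochondrial acyl carrier protein in the complex. Ndufa4, the most abundant RNA of those counted here with complex I, had 1860 RPKM in footprints and 633 and 567 in RNA (1.29 ± 0.10). Ndufa4 was first assigned to complex I and is now regarded as a subunit of complex IV. Its paralog Ndufa4l2, known from hypoxic cells, had 12.5 footprints (95% interval 6.57 to 21.6) and 29.95 and 60.9 RNA counts, and its footprint RPKM was 137-fold below that of Ndufa4. Ndufa12 is named after its values were seen, since its replicates were the farthest apart of the passing members (20.3 and 40.5 RPKM in RNA, log2 TE 2.80 ± 0.72).

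Complex II, succinate dehydrogenase, links the tricarboxylic acid cycle to the chain and is the only complex with all its subunits in the nucleus. Its 4 members had a median log2 TE of 0.34. None was above 1 or below -1, against 20.8% and 21.1% of all passing genes. Its median is the lowest of the 5 complexes over all passing genes, but among genes without any window elsewhere complex I lay lower. Relative to genes counted 100 times or more in each library the complex II median was -0.058, because the middle of that set lay 0.39 higher while the 4 ratios were the same. Sdha, the flavoprotein that oxidizes succinate, had 49.7 RPKM in footprints and 36.6 and 34.3 RPKM in RNA (0.14 ± 0.05). Sdhb, the iron-sulfur subunit, had 121 RPKM in footprints and 88.2 and 97.9 in RNA (0.037 ± 0.12). Both form the catalytic part on the matrix side.

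Sdhc and Sdhd anchor that part in the membrane. Sdhc had 239 RPKM in footprints and 130 and 132 RPKM in RNA (0.53 ± 0.03). Sdhd had 235 RPKM in footprints and 109 and 102 in RNA (0.82 ± 0.05). The complex holds a single copy of each subunit, yet the footprint density of Sdhc was 4.81 times that of Sdha, and the RNA ratios were 3.55 and 3.84. Sdhb stood at 2.43 times Sdha in footprints and 2.41 and 2.85 times in RNA. The order Sdha, Sdhb, Sdhd, Sdhc was the same in footprints and in RNA. The footprint order of the last pair is uncertain, since their densities differed by a ratio of 1.02 and rest on 398 footprints (95% interval 360 to 439) for Sdhd and 430 (390 to 473) for Sdhc.

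Complex III passes electrons from ubiquinol to cytochrome c. Its 8 members had a median of 398 RPKM in footprints, 207 RPKM in RNA and a log2 TE of 0.82. Of the 8, 3 were above 1 (37.5%, against 20.8% of all passing genes). With RNA-seq over the CDS this was also 3 (against 18.3%). The core proteins Uqcrc1 and Uqcrc2, relatives of the mitochondrial processing peptidase, lay near 0. Uqcrc1 had 358 RPKM in footprints and 238 and 275 in RNA (0.14 ± 0.16), and Uqcrc2 had 229 in footprints and 179 and 159 in RNA (0.10 ± 0.11). Both differ from 0 by less than their SD. The small subunits, 5 in number, lay at a median of 1.17.

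Uqcrb, which lies near the quinone site, had 214 RPKM in footprints and 23.2 and 21.95 in RNA (2.91 ± 0.04). Uqcr11, the smallest subunit, had 617 RPKM in footprints and 90.9 and 105 in RNA (2.31 ± 0.16). Uqcrh, the hinge protein beside cytochrome c1, had 439 RPKM in footprints and 260 and 279 in RNA (0.36 ± 0.08). Uqcrh and Uqcrb, both small proteins, differed in log2 TE by more than their spread. Uqcrq had 699 RPKM in footprints and 200 and 291 RPKM in RNA (1.17 ± 0.40). Its log2 ratio of replicate 2 to replicate 1, 0.54, was the highest among members counted 100 times or more in each library, where the median was 0.08 and the SD 0.16.

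Complex IV reduces oxygen, and its nuclear subunits surround a core made in the mitochondrion. The 11 passing members had the highest median footprint level of the 5 complexes, 824 RPKM, with 297 RPKM in RNA. Their median log2 TE was 1.22. Above 1 were 9 (81.8%, against 20.8% of all passing genes), and 1 was below -1 (against 21.1%). With RNA-seq over the CDS, 6 of the 11 were above 1 (54.5%), against 18.3% of all passing genes. The 10 subunits that are the ubiquitous isoforms differed more in RNA than in footprints. Their RNA ran from 16.2 to 614 RPKM (SD of log2 RPKM 1.49), while their footprints ran from 501 to 1888 RPKM (SD of log2 RPKM 0.57). The lowest RNA, that of Cox5b, was followed by Cox7b at 101.1 RPKM. Without both of these, which had under 80% of their annotated CDS counted, the SD of log2 RPKM was 0.71 in RNA and 0.55 in footprints over 8 genes. Over the 9 passing members with at least 80% counted, which include Cox7a2l, the SD was 0.67 in RNA and 1.02 in footprints. The order was therefore not kept with Cox7a2l in the set.

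Cox4i1, the largest nuclear subunit, had the most RNA of the complex, 586 and 642 RPKM, with 808 RPKM in footprints (0.053 ± 0.10). Cox8a, a small membrane subunit, had 1888 RPKM in footprints and 384 and 458 RPKM in RNA (1.82 ± 0.19). Cox8a therefore had 2.34 times the footprint density of Cox4i1, with 0.654 and 0.713 times its RNA. The order of this pair was reversed between footprints and RNA. Cox7b, another membrane subunit, had 1175 RPKM in footprints and 107 and 95.5 in RNA (3.20 ± 0.10), or 1.68 with RNA-seq over the CDS. Cox7a2 stood at 1.84 ± 0.03 and Cox6c at 1.04 ± 0.13, or at 1.02 and 0.57 with RNA-seq over the CDS.

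Cox5b, a zinc-binding subunit on the matrix side, had the highest log2 TE of all members, 4.61 ± 0.15 (3.91 with RNA-seq over the CDS), and is named after its values were seen because it had under 100 counts in an RNA library. It had 501 RPKM in footprints and 17.5 and 14.9 RPKM in RNA. Only 118 nucleotides (27.1%) of its annotated CDS were counted, holding 210 footprints (95% interval 182 to 240). The part of the short counted region in this value was not tested.

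At the other end, Cox7a2l, which joins complexes III and IV into supercomplexes and is not a catalytic subunit, had 139 RPKM in footprints and 302 and 330 RPKM in RNA. Its log2 TE was -1.53 ± 0.10, and -1.28 with RNA-seq over the CDS. Its 198 footprints had a 95% interval of 172 to 228. Cox4i1 had 1.94 and 1.95 times the RNA of Cox7a2l and 5.81 times its footprint density. Cox7a2 is its paralog, and the pair lay at opposite sides of 0.

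Several subunits of complex IV have a second isoform made in muscle, lung or testis. All 7 of these tissue isoforms (Cox4i2, Cox6a2, Cox6b2, Cox7a1, Cox7b2, Cox8b and Cox8c) had 0 footprints. With a limit of 3 counts for a count of 0, the footprint density of Cox4i2 was at least 493-fold lower than that of Cox4i1. The same bound was at least 292-fold for Cox6a2 against Cox6a1, at least 284-fold for Cox6b2 against Cox6b1 and at least 234-fold for Cox7a1 against Cox7a2. It was at least 342-fold for Cox7b2 against Cox7b, and at least 469-fold for Cox8b and at least 483-fold for Cox8c against Cox8a. RNA was close to 0 as well. Cox6a2 had 5 counts in replicate 1 and 3.87 in replicate 2, the most of the 7, and Cox7b2 and Cox8c had 0 in both. Among their ubiquitous counterparts, Cox6a1 stood at 849 and Cox6b1 at 1058 RPKM in footprints (log2 TE 1.17 ± 0.17 and 1.05 ± 0.04, the latter 0.85 with RNA-seq over the CDS).

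**Figure D2:**
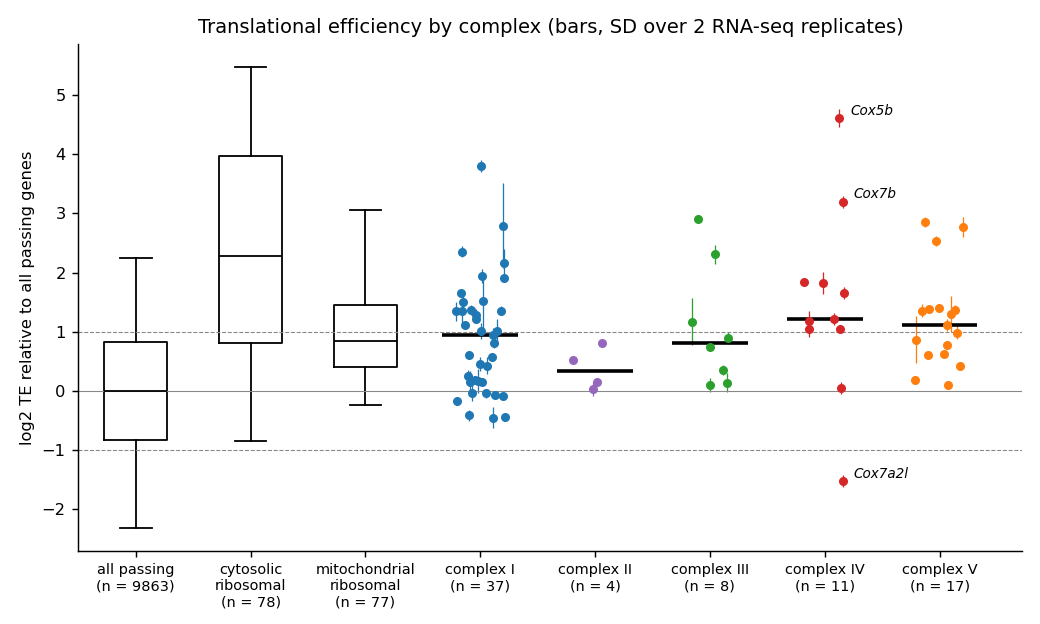
Log2 TE of each passing member by complex (points; bars, SD over the 2 RNA-seq replicates; thick lines, medians), beside boxes for all passing genes, cytosolic and mitochondrial ribosomal protein genes (box, quartiles; whiskers, 5th to 95th percentile). Medians run from 0.34 in complex II to 1.22 in complex IV, and points of every complex overlap those of the others.

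Complex V, ATP synthase, had 17 members, all passing, with a median log2 TE of 1.11. Of these, 9 were above 1 (52.9%, against 20.8% of all passing genes). With RNA-seq over the CDS it was 7 (41.2%, against 18.3%). Complex V took 0.748% of all CDS footprints, the most of the 5 complexes, against 0.446% for complex I. In the catalytic F1 head, the alpha subunit Atp5a1 had 929 RPKM in footprints and 476 and 492 in RNA (0.60 ± 0.05). The beta subunit Atp5b, which holds the catalytic sites, had 1020 RPKM in footprints and 688 and 729 in RNA (0.18 ± 0.07). These subunits are present in equal copies in the head. Their footprint densities differed by a ratio of 1.10, while the RNA of Atp5b stood at 1.45 and 1.48 times that of Atp5a1.

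The central stalk turns inside the head and holds a single copy of each of its subunits. Its gamma subunit Atp5c1 had 492 RPKM in footprints and 231 and 224 in RNA (0.77 ± 0.02, or 0.19 with RNA-seq over the CDS). The delta subunit Atp5d had 687 RPKM in footprints and 189 and 251 in RNA (1.30 ± 0.30). The epsilon subunit Atp5e had 1056 RPKM in footprints and 399 and 442 in RNA (0.99 ± 0.12). Atp5a1 had 1.89 times the footprint density of Atp5c1, against 2.06 and 2.20 times its RNA. Atp5e reached the footprint density of Atp5b although the head holds more copies of the beta subunit.

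The c ring is the rotor in the membrane, and Atp5g1, Atp5g2 and Atp5g3 encode the same mature subunit c with different import sequences. Atp5g3 had 1631 RPKM in footprints and 481 and 514 in RNA (1.37 ± 0.08). Atp5g2 had 512 RPKM in footprints and 179 and 195 in RNA (1.11 ± 0.10). Atp5g1 had 424 RPKM in footprints and 44.5 and 47.9 in RNA (2.86 ± 0.09). Atp5g3 was the main source in both assays. It gave 63.5% of the summed footprint RPKM and 68.3% and 67.9% of the summed RNA RPKM of the 3 genes, while Atp5g1 gave 16.5% of the footprints and 6.31% and 6.33% of the RNA.

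Of the peripheral stalk that holds the head still, Atp5h stood at 2.78 ± 0.17, from 647 RPKM in footprints and 68.8 and 80.2 in RNA. Of the small membrane subunits, which help ATP synthase form dimers, Atp5l stood at 2.54 ± 0.08, from 955 RPKM in footprints and 135 and 123 in RNA. Atp5k, of the same group, stood at 0.43 ± 0.05, from 481 RPKM in footprints and 276 and 288 in RNA. The groups of complex V lay at median log2 TE of 0.77 for the F1 subunits, 1.37 for the c ring genes, 1.37 for the peripheral stalk and 1.40 for the small membrane subunits. These were 0.47, 1.31, 0.97 and 0.97 with RNA-seq over the CDS. Atp5s and Atp5sl, the pair without a structural role, had 17.2 and 13.4 RPKM in footprints, the lowest of the complex. Both are named outside the rule for named genes.

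**Figure D3:**
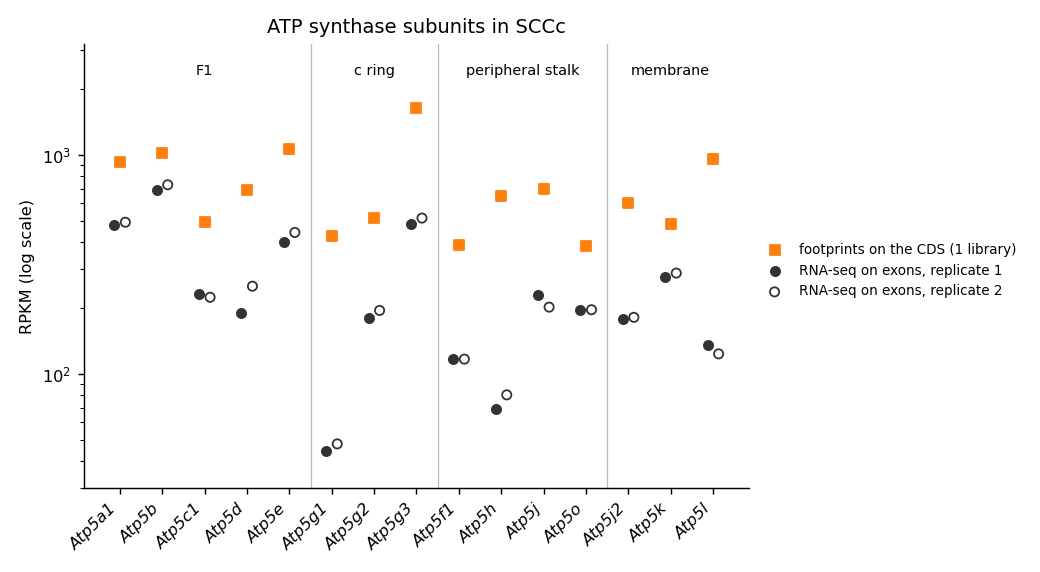
RPKM of 15 ATP synthase subunits on a log axis, by place in the complex, in footprints (squares, 1 library) and in RNA-seq replicates 1 and 2 (filled and open circles). Atp5g1, Atp5h and Atp5l have the widest gaps between footprints and RNA, and Atp5b has the narrowest.

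Many of these genes have processed pseudogenes, and how the counting treated reads with several matches is not known from the sources used here. Each gene's CDS was therefore cut into 28-base windows, which were looked up in the annotated transcripts of genes elsewhere. At least 1 window recurred for 52 of the 77 members (67.5%), against 30.6% of the other passing genes. Of these members, 15 had at least 50% of their windows elsewhere, and their values are uncertain. They were Atp5g1, Atp5g2, Atp5l, Cox7c and Ndufb4 at 100%, then Uqcrb, Ndufs5, Cox7a2l, Atp5h, Ndufa12, Cox5b, Ndufs3, Cox6c, Atp5f1 and Uqcr11. Cox7c, Ndufb4 and Atp5f1 are outside the rule for named genes and are listed for this share alone. All windows of Atp5g1 and Atp5g2 were found in pseudogenes, and those of Atp5l in 21 genes, of which 20 were pseudogenes.

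Log2 TE moved with this share. The 25 members without any window elsewhere had a median of 0.43 and 3 were above 1, the 37 with under 50% had 1.17 and 22 above 1, and the 15 with at least 50% had 2.31 and 14 above 1. In the other passing genes the medians were -0.11, 0.011 and 1.55. The shares above 1 were 12%, 59.5% and 93.3% of the members in these ranges, against 16.4%, 20.9% and 62.5% of the other passing genes. The members above 1 with RNA-seq over the CDS were 3, 8 and 13 (12%, 21.6% and 86.7%), against 13.8%, 17.97% and 64.5% of the other passing genes. Across the 77 members the Spearman correlation of log2 TE with the share was 0.56, and it was 0.33 for log2 footprint RPKM and -0.047 for log2 RNA RPKM. Across 9801 passing genes these were 0.20, 0.24 and 0.16. Genes are not independent replicates, and these members share libraries and, in part, short coding sequences. The part of recurring sequence in the members' log2 TE was not tested.

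By complex, members without any window elsewhere were 12 of complex I (median log2 TE 0.15), all 4 of complex II (0.34), 3 of complex III (0.74) and 6 of complex V (0.93). None of the 11 passing members of complex IV was free of such windows. Single genes lay apart from this pattern, such as Cox7a2l, with 81.7% of its windows elsewhere and a log2 TE of -1.53.

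**Figure D4:**
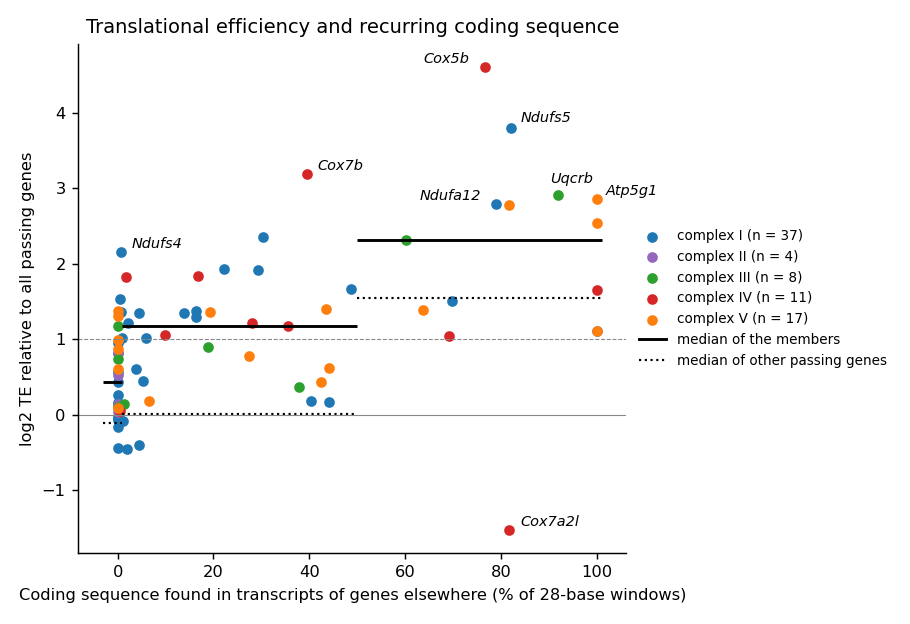
Log2 TE of the 77 passing members against the percentage of their 28-base CDS windows found in transcripts of genes elsewhere, colored by complex. Solid lines give the members' medians in the 3 ranges (0.43, 1.17 and 2.31) and dotted lines those of the other passing genes (-0.11, 0.011 and 1.55).

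Coding length went with log2 TE too. The median counted CDS was 402 nucleotides in members and 1353 in all passing genes. Across members the correlation of log2 TE with log2 counted CDS length was -0.55 (Pearson; Spearman -0.59), and across all 9863 passing genes it was -0.45 (Spearman -0.44). Genes other than members with a counted CDS between the members' quartiles, 264 to 636 nucleotides, had a median log2 TE of 0.82, and 591 of 1347 were above 1 (43.9%). Their median was 0.61 with RNA-seq over the CDS, above the 0.57 of the members, and 477 of 1347 were above 1. The part of length in the members' values was not tested.

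Footprints followed RNA across members with a Pearson correlation of 0.75 on log2 RPKM (Spearman 0.66, n = 77 genes), against 0.79 across all passing genes. By complex the Pearson correlation was 0.96 in complex II (4 genes), 0.90 in complex V (17 genes), 0.67 in complex I (37 genes), 0.61 in complex III (8 genes) and 0.18 in complex IV (11 genes). The Spearman correlation was 0.34 in complex I and 0.33 in complex IV, and with RNA-seq over the CDS 0.52 and 0.65. In complex V, Atp5s and Atp5sl lay far below the rest on both axes. The RNA-seq replicates correlated at 0.99 across members and at 0.995 within complex IV.

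Footprints outside the CDS were few. In the members, 4.20% of exon footprints lay in annotated 5′UTRs and 1.65% in 3′UTRs, against 4.92% and 1.80% over all passing genes. For 5′UTRs, complexes III (5.44%) and IV (6.47%) lay above all passing genes, and complexes I (3.55%), II (1.23%) and V (3.66%) below. For 3′UTRs, complexes II (2.02%) and IV (2.64%) lay above, and complexes I (1.71%), III (1.71%) and V (1.22%) below. The members' annotated 5′UTRs were short, with a median of 96 nucleotides against 165. Mitochondrial and cytosolic ribosomal protein genes had similar medians, 91 and 98.5 nucleotides.

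Ribosomal protein genes give a scale for these values, being made in large amounts and also short. The 78 cytosolic ribosomal protein genes had a median log2 TE of 2.29, with 56 above 1 (71.8%, against 20.8% of all passing genes). All 78 had windows elsewhere. The products of the 77 mitochondrial ribosomal protein genes translate the mitochondrially encoded subunits. These genes had a median of 0.85, with 35 above 1 (45.5%). With RNA-seq over the CDS it was 22 (28.6%, against 18.3% of all passing genes). Their median levels were 89.0 RPKM in footprints and 33.5 RPKM in RNA, below the 274 and 117 RPKM of the OXPHOS members. The OXPHOS median of 1.01 lay between these lists, but with RNA-seq over the CDS it was below both, at 0.57 against 0.67 for mitochondrial and 1.73 for cytosolic ribosomal protein genes. Among genes without any window elsewhere, OXPHOS members lay at 0.43 and mitochondrial ribosomal protein genes at 0.70. No test of the differences was made.

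**Figure D5:**
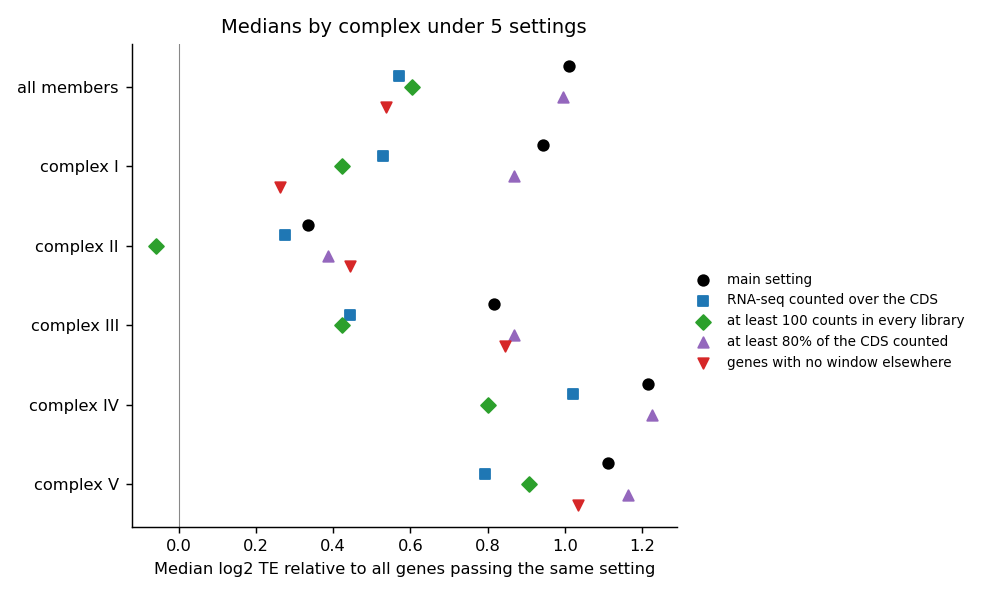
Median log2 TE of all members and of each complex under the main setting and 4 alternatives, each relative to all genes passing the same setting. Medians of all members run from 0.54 to 1.01, the complex II median is -0.058 relative to genes counted 100 times or more in each library, and complex IV has no point for genes without windows elsewhere.

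With 1 ribosome profiling library there was no replicate of the footprints, so the SD given covers the RNA-seq replicates alone. Differences between complexes were not tested, and their members overlapped in log2 TE.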

How the data were processed

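The estimated counts and RPKM per gene for CDS, exons and UTRs were deposited by the authors for 3 libraries. The authors trimmed reads (Trim Galore, FastQC), removed ribosomal, mitochondrial and tRNA matches from footprints (Bowtie2 2.4.1), aligned to GRCm38 (STAR 2.6.1) and counted with Plastid 0.4.7. RPKM were recomputed here from the counts and the sum of exon counts, in Python 3.11.15. The filter needed a base mean above 25 (DESeq2 1.42.0 size factors on rounded counts, R 4.3.3), a footprint on the CDS, and RNA above 1 RPKM in each RNA-seq library. TE and its threshold of 1 and -1 (log2) are as defined in the text, with no p-value. Footprint intervals are exact Poisson intervals (95%). Annotation was GENCODE M21, matched for 84 of 84 members by symbol or, for Atp5sl, by a RefSeq synonym (Dmac2). Code was tested on simulated data. Genes named were taken from the 3 highest and 3 lowest log2 TE per complex among members counted 100 times or more in each library, the highest RNA per complex, complex I core, F1 and subunit c genes, isoform pairs, replicate extremes and members under 3 counts; others are said to be chosen later. The members and lists were chosen with earlier results of these data known. Alternatives were other count filters, RNA-seq over the CDS, a pseudocount of 1 RPKM, at least 80% of the CDS counted, edgeR 4.0.16 TMM factors, the deposited RPKM in the filter, single-name entries, each RNA-seq replicate left out, genes without recurring windows, and Ndufa4 with Ndufa4l2 in complex IV.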

Additional observations from a re-analysis of the deposited data

How the results depend on the processing

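No paired analysis was possible because the values come from no test and a single ribosome profiling library. For genes counted 100 times or more in each library, the median log2 ratio of all genes rose from 0.34 to 0.74, and relative to it the medians were 0.61 (all members), 0.42 (complex I), -0.058 (II), 0.42 (III), 0.80 (IV) and 0.91 (V), with 17 members above 1. With RNA-seq over the CDS the median of all genes was 0.048, and the medians were 0.57, 0.53, 0.27, 0.44, 1.02 and 0.79 in that order, with 24 above 1, and Ndufa11 changed from 2.35 to -0.070. Among genes with no 28-base window elsewhere, an alternative chosen after seeing the data, the median of all genes shifted by -0.11, the medians were 0.54 (all members), 0.26 (I), 0.44 (II) and 1.03 (V), complex IV gave no value, 5 members were above 1 and 0 below -1. Counting Ndufa4 and Ndufa4l2 with complex IV, also chosen after seeing the data, gave 0.82 for complex I and 1.29 for complex IV. Complex II and IV had 0.31 and 1.19 with no filter and 0.36 and 1.24 with a pseudocount, and complexes II, III and IV had 0.39, 0.87 and 1.23 with at least 80% of the CDS counted. Leaving out each RNA-seq replicate gave 1.28 to 1.30 for complex IV and 1.10 to 1.18 for complex V. The cause was not tested for any of these. The minimum of 100 counts lowers every gene by the same 0.39, which alone sets its sign changes, and the other filters also shift all genes alike. Of 43 named genes, 41 kept their sign with RNA-seq over the CDS and 6 changed their side of 1, 41 kept it without RNA-seq replicate 1 and 42 without replicate 2. Depth limits the members with few counts, such as Ndufa4l2 with 12.5 footprints, and 0 footprints for a tissue isoform does not show that it is absent.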

Other observations

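Assembly factors, which build the complexes without remaining in them, were far lower than the subunits. Of 48 listed, 44 were in the files and 42 passed, with medians of 29.5 RPKM in footprints and 15.0 RPKM in RNA, a median log2 TE of 0.81 and 16 above 1 (38.1%, against 20.8% of all passing genes). Cox17, the copper carrier to complex IV, was the most abundant, at 658 RPKM in footprints and 150 and 148 in RNA (1.80, or 1.46 with RNA-seq over the CDS). Pet100 (3.26), Cmc2 (2.93) and Cox16 (2.63), which act on complex IV, had the highest log2 TE, which with RNA-seq over the CDS was 1.49, 1.95 and 0.998. In that setting 9 of the 42 were above 1, against 18.3% of all passing genes. All genes named in these observations apart from complete lists were picked after their values were seen.

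Carriers that the name rule leaves out had more uneven values. Cycs, the soluble electron carrier between complexes III and IV, had 966 RPKM in footprints and 33.0 and 26.7 in RNA (4.67, or 2.79 with RNA-seq over the CDS). Ndufab1, the acyl carrier protein and complex I subunit, had 392 RPKM in footprints and 13.5 and 12.9 in RNA (4.55). All 28-base windows of Cycs and Ndufab1 recur in transcripts of genes elsewhere (100%), so both values are uncertain, and the part of this in them was not tested. Cyc1, the heme subunit of complex III, had 202 RPKM in footprints and 129 and 135 in RNA (0.27), with 0% of its windows elsewhere.

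The 14 tricarboxylic acid cycle enzymes had a median log2 TE of 0.35, close to complex II. Above 1 were 2 of the 14 (14.3%, against 20.8% of all passing genes). These were Suclg2 at 2.12 and Idh3a at 1.35, or 2.44 and 0.99 with RNA-seq over the CDS. Mdh2, malate dehydrogenase, was the most abundant, at 617 RPKM in footprints and 322 and 338 in RNA. Among 9 regulators of respiratory genes, Nrf1 stood at 0.97, Gabpa at 1.06, Gabpb1 at 1.99, Tfam, which packages mitochondrial DNA, at 1.67, and Yy1 at 0.20. With RNA-seq over the CDS these were 0.49, 0.94, 1.01, 0.68 and 0.67. Esrra, the estrogen-related receptor alpha, had 18.7 RPKM in footprints and 40.9 and 48.3 in RNA (-1.59, or -1.52 with RNA-seq over the CDS). The coactivator gene Ppargc1a was listed at 0 in all libraries, Pprc1 stood at -0.50 (-0.28 with RNA-seq over the CDS) and Ppargc1b, on 20.1 footprints, at -0.086, which turned to 0.037 with RNA-seq over the CDS.

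Acta1, the skeletal muscle actin gene, had 2432 footprints on its CDS but 5 RNA counts in replicate 1.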
